A study of Homo sapiens with 4 samples.

Results

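Polycomb and DNA methylation are the main systems by which a cell keeps genes silent through division. Polycomb repressive complex 2 (PRC2) places methyl groups on lysine 27 of histone H3. EZH2 or its relative EZH1 provides the catalytic site, and SUZ12 and EED are core subunits without which neither enzyme works. DNMT1 copies CpG methylation onto newly made DNA, guided by UHRF1, which reads hemimethylated sites, and aided by HELLS, a chromatin remodeller. DNMT3A and DNMT3B set new methylation, and TET1 oxidizes methylated cytosine as a step toward its removal. In prostate cancer, high EZH2 is a known feature of advanced disease, and promoter methylation of genes such as GSTP1 is a common mark of tumor cells.

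The 10 genes EZH2, EZH1, SUZ12, EED, DNMT1, DNMT3A, DNMT3B, UHRF1, HELLS and TET1 were taken as a list of symbols of PRC2 and of DNA methylation. The rule uses no measured value, but the list was drawn up with earlier results of these data known. All 10 matched an Ensembl identifier among the 60880 genes of the files, and all 10 were among the 15626 genes with enough reads to be tested.

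RNA-Seq compared 2 libraries of LNCaP95 (replicates 1 and 2, genotype WT) with 2 libraries of LN95(KO) (replicates 3 and 4, genotype UGT2B17 KO). LNCaP95 is a prostate cancer cell line that derives from LNCaP and grows without androgen, and LN95(KO) was made from it with CRISPR vectors against UGT2B17, which encodes an enzyme that attaches glucuronic acid to androgens. Both were grown in RPMI1640 with charcoal-stripped serum and no treatment was given. Whether LN95(KO) is 1 clone was not stated, so the effect of the knockout and the traits of a selected line cannot be told apart, and the p-values describe the spread between cultures whose independence was not stated.

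The libraries held 17330338 to 18813193 gene reads each. UGT2B17 had 2788 and 2748 counts in LNCaP95 against 21 and 20 in LN95(KO). The 9 luminal prostate markers were present, with a summed level of 4736 and 4776 CPM in LNCaP95 against 4188 and 3998 in LN95(KO) (CPM, counts scaled by the TMM-adjusted library size), while DCN, CD3E and CHGA had 0 reads in all 4 libraries. The summed level of 3 basal markers was 0.163 and 0.164 CPM in LNCaP95 against 1.02 and 1.26 in LN95(KO), mostly from KRT14. That of 5 neuroendocrine markers was 50.9 and 49.8 CPM against 14.97 and 14.2, nearly all of it from ENO2 (47.4 and 45.6 CPM against 12.6 and 11.9). NCAM1, with few reads, was also lower, with 19 and 32 counts in LNCaP95 against 0 and 1 in LN95(KO). SYP was at 2.44 and 2.40 CPM against 2.37 and 2.30. The summed level of the 8 stromal, endothelial and blood cell markers, of which 7 were in the files, lay between 29.2 and 35.7 CPM in every library, nearly all of it from COL1A1. Reads that did not align made up 3.85% and 3.96% of entries in LNCaP95 against 8.05% and 7.71% in LN95(KO).

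UHRF1, HELLS, DNMT3B and TET1 were called higher in LN95(KO) and DNMT3A was called lower. DNMT1 and the 4 PRC2 core genes were not called. Of those 4, 0 were called by edgeR or by DESeq2, and by the adjusted p alone 0 were higher and 2 lower. With 4 genes, these counts cannot be told from the background given next. The difference between the PRC2 and the DNA methylation genes was not tested. Calls needed both a fold change over 2 and an adjusted p below 0.05 (quasi-likelihood test of edgeR, with p-values adjusted after Benjamini and Hochberg across the genes tested). By this rule 4 of the 10 genes were called higher, against 8.86% of all genes tested, and 1 was called lower, against 9.13%. By the adjusted p alone, 5 of the 10 were higher, against a background of 29.8%, and 3 were lower, against 30.1%. In 9 of the 10 genes the values of the groups were apart, as they were in 79.8% of all genes tested, so separation of the groups was the usual case in this comparison. The median log2 fold change of the 10 genes was 0.47, against -0.01 over all genes tested.

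**Figure D1:**
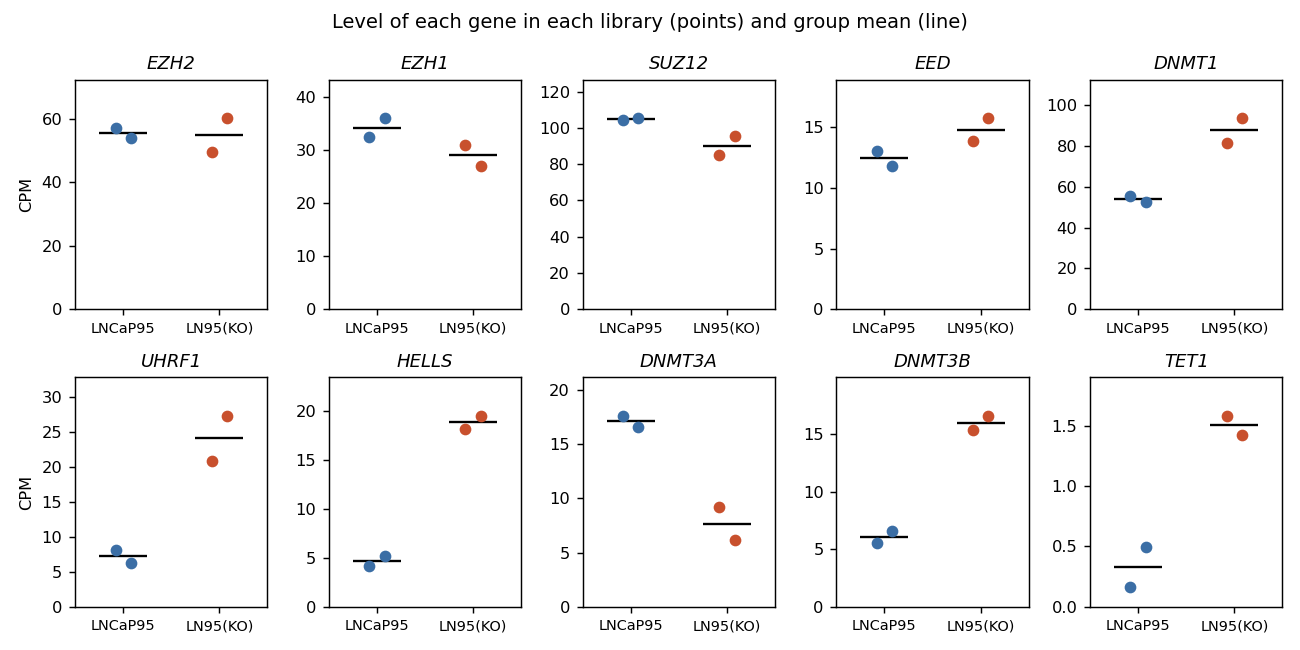
Level of each of the 10 genes in CPM (linear axis from 0, a separate scale for each gene) in 2 LNCaP95 and 2 LN95(KO) libraries, with a line at each group mean. The LN95(KO) points of EZH2, at 49.5 and 60.3 CPM, lie on both sides of the LNCaP95 points, whereas those of UHRF1, HELLS, DNMT3B and TET1 lie above and those of DNMT3A below.

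EZH2 (ENSG00000106462.10_4), the main PRC2 enzyme of dividing cells, lies on the minus strand of chromosome 7 (148504349 to 148581413, GRCh37, 17 exon blocks). It had 1052 and 988 counts in LNCaP95 against 877 and 1100 in LN95(KO), or 57.0 and 53.9 CPM against 49.5 and 60.3 CPM. The LN95(KO) libraries therefore held both the lowest and the highest value of the 4. The log2 fold change was -0.01 (SE 0.08, adjusted p = 0.892, edgeR), with a 95% interval from -0.18 to 0.15, which spans folds of 0.882 to 1.11. The sign turned with scaling by library totals (0.04) and without LNCaP95 replicate 1 (0.03) or LN95(KO) replicate 3 (0.12).

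EZH1 (ENSG00000108799.12_2), the relative that predominates in many resting cells, is on chromosome 17 (40852293 to 40897067, minus strand, 23 exon blocks). It had 599 and 661 counts in LNCaP95 against 548 and 494 in LN95(KO). Both LN95(KO) values were below both LNCaP95 values when scaled, at 31.0 and 27.1 CPM against 32.5 and 36.1. The log2 fold change was -0.24 (SE 0.09, adjusted p = 0.0218, edgeR). With DESeq2 the adjusted p was 0.153, and it ran from 0.00673 to 0.220 over the alternatives.

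SUZ12 (ENSG00000178691.10_3), the subunit that holds the PRC2 core together, is on the plus strand of chromosome 17 (30264026 to 30328057, 16 exon blocks). Its counts were 1923 and 1933 in LNCaP95 against 1505 and 1743 in LN95(KO), which gave 104 and 106 CPM against 85.0 and 95.5. The fall was 0.22 on the log2 scale, or 1.16-fold (log2 fold change -0.22, SE 0.06, adjusted p = 0.0051, edgeR), and the groups did not overlap. The pseudogene SUZ12P1, a partial copy of SUZ12 also on chromosome 17, had 389 and 389 counts in LNCaP95 against 316 and 307 in LN95(KO). Reads that align equally well to both are left out by the counting step, so the level of SUZ12 is uncertain to that extent.

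EED (ENSG00000074266.19_3), which binds the trimethyl mark and stimulates the enzyme, is on chromosome 11 (85912254 to 85989855, plus strand, 12 exon blocks). It had 241 and 217 counts in LNCaP95 against 245 and 288 in LN95(KO), or 13.1 and 11.8 CPM against 13.8 and 15.8. The LN95(KO) values were the upper ones, by 0.25 on the log2 scale (SE 0.11), and the adjusted p was 0.0615 (edgeR). Over the alternatives it ran from 0.0246 to 0.347. Exons of another annotated gene cover 3.16% of the exon bases of EED.

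The summed CPM of the 4 core genes was 207 in both LNCaP95 libraries, above the 179 and 199 of LN95(KO). Levels of single genes of the list were compared with each other only after division by length. The length was the summed length of annotated exons (CPM per kilobase of exon, RPKM) unless stated. On that scale SUZ12 was the highest of the core genes in every library, at 15.9 and 16.1 RPKM in LNCaP95 against 13.0 and 14.6 in LN95(KO). EED was the lowest, between 1.69 and 2.26 RPKM. EZH2 made up 53.3% and 49.2% of the summed RPKM of EZH2 and EZH1 in LNCaP95 against 50.9% and 59.1% in LN95(KO). The ranges overlapped, so no shift between the catalytic subunits was visible with 2 libraries a group. The share depends on the length used: with the longest transcript it was 62.5% on average in LNCaP95 and 65.9% in LN95(KO).

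Of the maintenance genes, DNMT1 (ENSG00000130816.15_4) is on chromosome 19 (10244018 to 10341962, minus strand, 43 exon blocks). It had 1022 and 965 counts in LNCaP95 against 1442 and 1710 in LN95(KO), or 55.4 and 52.7 CPM against 81.5 and 93.7. It was higher in both LN95(KO) libraries by 1.62-fold, with a 95% interval of 1.47 to 1.79 (log2 fold change 0.70, SE 0.07, adjusted p = 1.38e-07, edgeR). The change passed the adjusted p but fell short of 2-fold, and DNMT1 was therefore not called.

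UHRF1 (ENSG00000276043.4_4), the reader that brings DNMT1 to the replication fork, is also on chromosome 19 (4903092 to 4962165, plus strand, 19 exon blocks). Its counts were 150 and 116 in LNCaP95 against 369 and 499 in LN95(KO), or 8.13 and 6.33 CPM against 20.8 and 27.3. The rise was 3.33-fold, with a 95% interval of 2.69 to 4.13 (log2 fold change 1.74, SE 0.14, adjusted p = 6.22e-08, edgeR). The ratio of UHRF1 to DNMT1 on the RPKM scale was 0.439 and 0.359 in LNCaP95 against 0.765 and 0.872 in LN95(KO).

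HELLS (ENSG00000119969.14_3), the remodeller that opens chromatin to the methyltransferases, is on chromosome 10 (96305086 to 96373662, plus strand, 24 exon blocks). It had 78 and 95 counts in LNCaP95 against 322 and 357 in LN95(KO), or 4.23 and 5.19 CPM against 18.2 and 19.6. The rise was 4.01-fold, with a 95% interval of 3.32 to 4.85 (log2 fold change 2.00, SE 0.13, adjusted p = 5.07e-10, edgeR). HELLS had the smallest adjusted p of the 10 genes.

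The de novo enzymes moved in opposite directions. DNMT3A (ENSG00000119772.16_3), on chromosome 2 (25450724 to 25565459, minus strand, 28 exon blocks), had 325 and 303 counts in LNCaP95 against 162 and 112 in LN95(KO), or 17.6 and 16.5 CPM against 9.15 and 6.14. The fall was 2.24-fold (log2 fold change -1.16, SE 0.14, adjusted p = 2.06e-06, edgeR). Without LN95(KO) replicate 4 the log2 fold change was -0.90 and the call was lost, and against a 2-fold null the adjusted p was 0.338. DNMT3B (ENSG00000088305.18_3), on chromosome 20 (31350191 to 31397165, plus strand, 24 exon blocks), had 102 and 121 counts in LNCaP95 against 272 and 303 in LN95(KO), or 5.53 and 6.61 CPM against 15.4 and 16.6. The rise was 2.63-fold, with a 95% interval of 2.19 to 3.17 (log2 fold change 1.40, SE 0.13, adjusted p = 4.81e-08, edgeR).

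The order of the de novo enzymes thus turned between the lines. On the RPKM scale the ratio of DNMT3A to DNMT3B was 1.59 and 1.25 in LNCaP95 against 0.297 and 0.184 in LN95(KO). Of the summed RPKM of the 3 methyltransferases, DNMT3A made up 22.5% and 21.5% in LNCaP95 against 8.10% and 4.97% in LN95(KO), and DNMT3B 14.1% and 17.2% against 27.3% and 26.97%. DNMT1 remained the largest part in each library, at 63.4% and 61.3% against 64.6% and 68.1%.

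**Figure D2:**
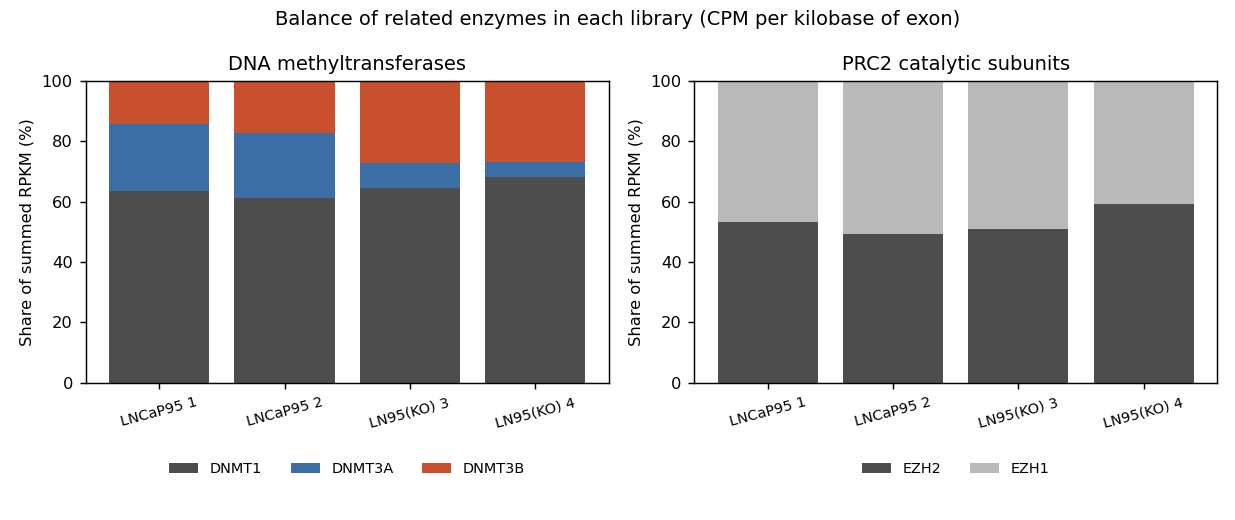
Share of summed RPKM in percent, by library, of DNMT1, DNMT3A and DNMT3B (left) and of EZH2 and EZH1 (right). DNMT3A narrows from 22.5% and 21.5% in LNCaP95 to 8.10% and 4.97% in LN95(KO) while DNMT3B widens, and the EZH2 share overlaps between the groups.

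TET1 (ENSG00000138336.8_3), an oxidase of methylated cytosine, is on chromosome 10 (70320094 to 70454244, plus strand, 12 exon blocks). It was the gene with the fewest reads, 3 and 9 in LNCaP95 against 28 and 26 in LN95(KO), or 0.163 and 0.491 CPM against 1.58 and 1.42. The log2 fold change was 2.18 (SE 0.43, adjusted p = 0.000333, edgeR), which corresponds to 4.53-fold with a wide 95% interval of 2.40 to 8.53. The count of 3 in LNCaP95 replicate 1 is at the level that a count of 0 allows, and the estimate moved from 1.60 without that library to 3.15 without LNCaP95 replicate 2. TET1 stayed the lowest of the 10 genes in RPKM in every library, at most 0.165.

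**Figure D3:**
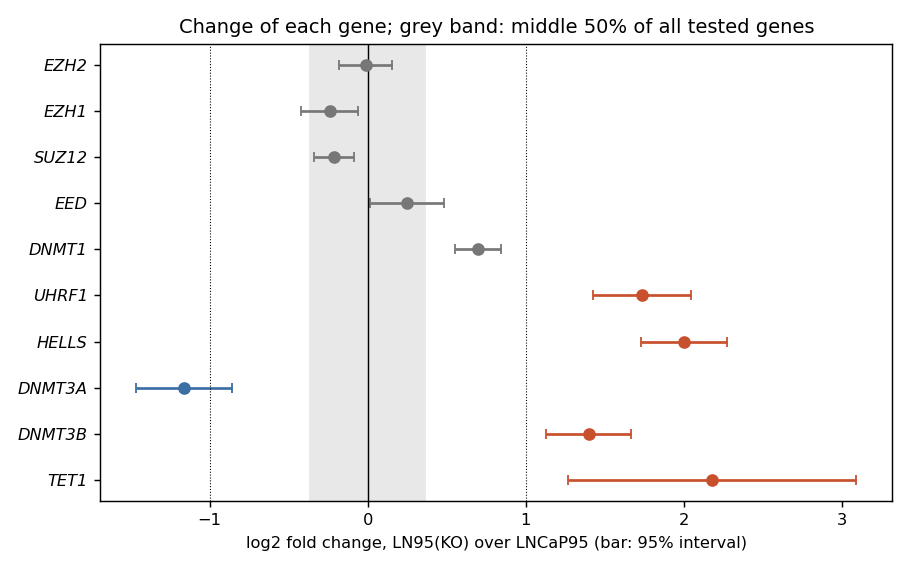
Log2 fold change (LN95(KO) over LNCaP95) of the 10 genes with 95% intervals from the edgeR fit. The grey band spans the quartiles of all tested genes (-0.37 to 0.37) and dotted lines mark a 2-fold change. The estimates of the 4 PRC2 core genes lie in the band, with orange for genes called higher and blue for DNMT3A, called lower.

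Ranked by mean RPKM, the order in LNCaP95 was SUZ12 (16.0), EZH2 (5.15), EZH1 (4.90), DNMT1 (3.51), EED (1.78), UHRF1 (1.41), DNMT3A (1.24), DNMT3B (0.882), HELLS (0.331) and TET1 (0.0340). In LN95(KO) it was SUZ12 (13.8), DNMT1 (5.70), EZH2 (5.10), UHRF1 (4.68), EZH1 (4.15), DNMT3B (2.32), EED (2.12), HELLS (1.33), DNMT3A (0.555) and TET1 (0.156). Neighbours whose replicate values overlapped and so could not be ordered were EZH2 and EZH1, and UHRF1 and DNMT3A, in LNCaP95. In LN95(KO) these were DNMT1, EZH2 and UHRF1 among themselves, UHRF1 and EZH1, and DNMT3B and EED. Both orders hold for the summed exon length only. With the longest transcript as length, EZH2 was above EZH1 in every library, by 1.81 and 1.54 times in LNCaP95 and 1.65 and 2.29 times in LN95(KO).

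Promoter sequence was examined because several of the genes are known targets of E2F, the family of factors that times gene activity to DNA replication. RefSeq promoter windows of 300 bases (250 before to 50 after a start site, build GRCh38.p14) matched all 10 genes, with 20 windows in all. The words TTTGGCGC, TTTCCCGC, TTTCGCGC and TTTGCCGC, which are forms of the E2F motif, were searched on both strands. At least 1 was found for 6 of the 10 genes, namely EZH2, EZH1, SUZ12, DNMT1, UHRF1 and HELLS, against 3.99% of all 27305 genes with a window. By window the numbers were 7 of 20 against 3.31% of 35116. The cell cycle element words TTTGAA and TTCGAA were found for 2 of the 10, against 19.5% of all genes with a window. By window they were in 2 of 20, against 16.4%. The word CCAAT was found for 7 of the 10, against 39.7%, and in 9 of the 20 windows, against 34.6%. The shares by gene depend on the windows each gene has, and the 10 genes had 20 where 27305 genes had 35116. The E2F word occurred both in genes that were called higher and in all PRC2 core genes but EED, none of which was called, and it was not found in the windows of DNMT3A, DNMT3B or TET1. The only window of DNMT3B (chr20:32779602-32779901, GRCh38.p14) held 3 CpG sites, the fewest of the 20 windows. Start sites outside the windows were not searched, so a missing word holds for the windows alone. A match is a word in the sequence, and binding was not measured.

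The upstream sequences of HELLS and UHRF1, which were called higher, and of SUZ12, which was not, are shown to place the word. Each runs 5′ to 3′ on the strand of its gene and ends at the base before the start site, with the E2F words in capitals. HELLS is at chr10:94545538-94545787, UHRF1 (the first of its windows) at chr19:4909251-4909500 and SUZ12 at chr17:31936757-31937006, all on the plus strand of GRCh38.p14.
HELLS: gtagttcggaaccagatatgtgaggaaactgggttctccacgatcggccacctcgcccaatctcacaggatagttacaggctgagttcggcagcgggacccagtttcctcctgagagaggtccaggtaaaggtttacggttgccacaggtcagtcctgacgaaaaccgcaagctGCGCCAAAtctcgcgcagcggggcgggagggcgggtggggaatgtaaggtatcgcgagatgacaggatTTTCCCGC
UHRF1: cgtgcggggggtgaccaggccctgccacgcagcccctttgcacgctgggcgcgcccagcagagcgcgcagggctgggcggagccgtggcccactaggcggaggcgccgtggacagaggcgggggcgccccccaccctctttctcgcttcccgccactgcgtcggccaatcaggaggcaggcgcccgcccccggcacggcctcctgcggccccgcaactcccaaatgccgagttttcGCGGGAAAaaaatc
SUZ12: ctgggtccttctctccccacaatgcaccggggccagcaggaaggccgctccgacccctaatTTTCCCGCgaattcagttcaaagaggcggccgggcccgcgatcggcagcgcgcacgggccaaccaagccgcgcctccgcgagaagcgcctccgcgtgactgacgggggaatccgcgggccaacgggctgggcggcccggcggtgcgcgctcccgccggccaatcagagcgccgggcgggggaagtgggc
HELLS carried 2 words, which begin 76 and 8 bases before the start site. In UHRF1 the word began 14 bases before it, and in SUZ12 189 bases before it.

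Proliferation markers are given beside the 10 genes, of which 6 had a log2 fold change above 0 and 4 one below 0. All 15 markers on the list were higher in LN95(KO). Of these, 14 were called higher, against 8.86% of all genes tested, and MCM6 was not. The median log2 fold change of the markers was 2.22. Among them MKI67, a protein of dividing cells, went from 9.16 ± 0.143 to 105 ± 13.1 CPM (SD, n = 2), RRM2, a subunit of the enzyme that makes deoxynucleotides, rose by 3.72 on the log2 scale, and E2F1 by 2.63. Their summed level was 353 and 338 CPM in LNCaP95 against 1286 and 1594 in LN95(KO). TET1 (2.18), HELLS (2.00), UHRF1 (1.74) and DNMT3B (1.40) lay within the range of the markers, from 0.70 for MCM6 to 3.72. EZH2 (-0.01), EZH1 (-0.24), SUZ12 (-0.22), EED (0.25) and DNMT3A (-1.16) lay below all 15. DNMT1 (0.697) was about level with MCM6 (0.699). In CPM not divided by length, EZH2 went from 16.2% and 15.9% of the summed markers in LNCaP95 to 3.85% and 3.78% in LN95(KO). DNMT1 went from 15.7% and 15.6% to 6.33% and 5.88%, and UHRF1 from 2.30% and 1.87% to 1.62% and 1.72%. These shares compare libraries, and their sizes do not rank the genes. The markers are RNA levels and do not measure growth. The study reported slower proliferation of LN95(KO) and a delay at the G2/M phase. It proposes that the rise of mitosis and DNA damage genes may be a response to DNA damage. In bulk RNA a larger share of dividing cells and more RNA per cell cannot be told apart. The part of proliferation in the changes of the 10 genes was not tested.

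**Figure D4:**
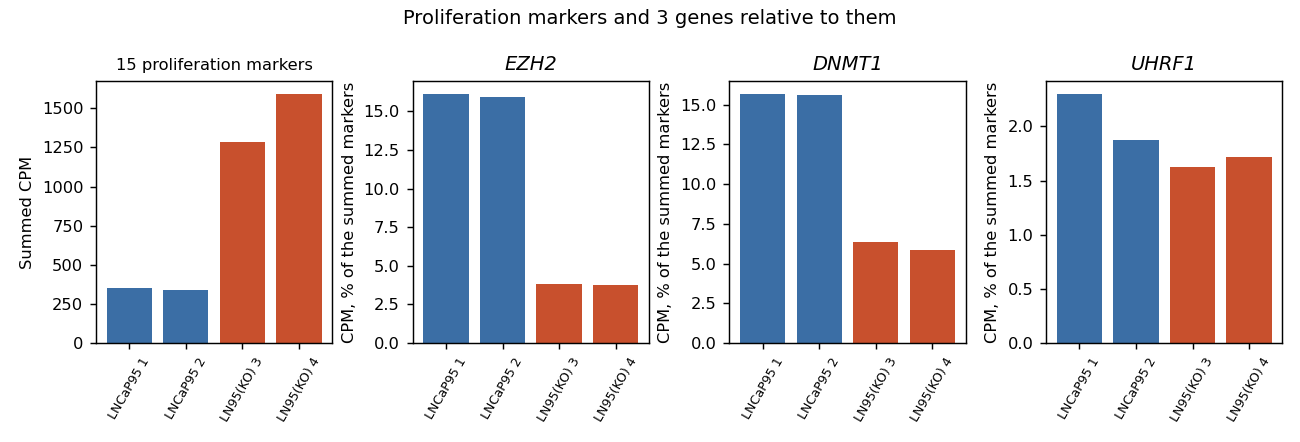
Summed CPM of the 15 proliferation markers (left) and the CPM of EZH2, DNMT1 and UHRF1 as a percentage of that sum, by library. The sum is 353 and 338 in LNCaP95 against 1286 and 1594 in LN95(KO), and EZH2 falls from about 16% of it to under 4%.

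Within LN95(KO), replicate 4 exceeded replicate 3 in all 15 markers, by a median of 1.22-fold, where the median over all tested genes was 1.00. Of the 10 genes, 7 were higher in replicate 4, and the largest ratios were those of UHRF1 (1.31) and EZH2 (1.22). DNMT3A had the lowest ratio, 0.671. The spread of EZH2 within LN95(KO) was thus wider than its difference between the groups.

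The accessory subunits of PRC2 steer the core to chromatin. Of 9 listed, 8 were tested. Of these, 0 were called higher and 1, PHF1, was called lower, against 8.86% and 9.13% of all genes tested. By the adjusted p alone 3 were higher and 2 lower, against 29.8% and 30.1% of all genes tested. RBBP7, a histone chaperone subunit, rose by 0.59 on the log2 scale (SE 0.07, adjusted p = 7.24e-07, edgeR) and MTF2, a DNA-binding subunit, by 0.59, both short of 2-fold. AEBP2 had a log2 fold change of -0.25 (adjusted p = 0.00902, edgeR), and RBBP4 1 of -0.01. JARID2 was at 23.8 ± 1.91 and 23.5 ± 0.390 CPM, and PHF19 at 9.90 ± 0.408 and 9.94 ± 1.99. PHF1 had 15 and 13 counts against 5 and 6 (log2 fold change -1.30, adjusted p = 0.0258, edgeR), and its call was lost with DESeq2 (adjusted p 0.303) and without any 1 of the 4 libraries (adjusted p 0.0943 to 0.174). EZHIP, an inhibitor of PRC2, had 0 reads in all libraries.

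PHF1 lies in a stretch of chromosome 6 (29000000 to 34000000, GRCh37) in which 119 of 183 protein-coding genes, or 65.0%, had 0 reads in all 4 libraries, against 17.1% of protein-coding genes elsewhere. RING1, a ubiquitin ligase of PRC1, lies in the same stretch and was listed at 0 in every library. Why reads are missing there was not tested, and the values of both genes are uncertain.

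PRC1 reads the PRC2 mark and adds ubiquitin to histone H2A. Of 21 listed genes, 20 were tested and 0 were called in either direction by edgeR or by DESeq2. Of all genes tested, edgeR called 8.86% higher and 9.13% lower. By the adjusted p alone 2 of the 20 were higher and 10 lower, against 29.8% and 30.1% of all genes tested. The median log2 fold change was -0.20. The largest fall was that of PCGF2, at -0.96 (SE 0.06, adjusted p = 8.07e-10, edgeR), from 79.9 ± 3.93 to 41.0 ± 1.28 CPM. PCGF2 passed 2-fold under upper quartile scaling (-1.002) and without LNCaP95 replicate 1 (-1.01), and exons of CISD3 and of a further annotated gene cover 61.5% of its exon bases.

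KDM6A, which removes methyl groups from lysine 27 of histone H3 and so opposes PRC2, was called lower. It had 2210 and 2199 counts in LNCaP95 against 837 and 898 in LN95(KO), a fall of 2.48-fold (log2 fold change -1.31, SE 0.06, adjusted p = 2.32e-12, edgeR). The other demethylase of that mark, KDM6B, was at 202 ± 4.56 and 180 ± 13.8 CPM (log2 fold change -0.17, adjusted p = 0.016, edgeR). None of the tested genes of the H2A deubiquitinase, BAP1, ASXL1 and ASXL2, was called.

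Of 8 partners of the DNA methylation enzymes, 7 had enough reads for the test. Of these, 4 were called higher, against 8.86% of all genes tested, and 0 lower, against 9.13%. The median log2 fold change was 1.11. LIG1, the replicative ligase that helps recruit UHRF1, rose most, from 81 and 98 counts to 317 and 331 (log2 fold change 1.89, SE 0.13, adjusted p = 9.61e-10, edgeR). CDCA7L rose by 1.38, CDCA7, the partner of HELLS, by 1.13, and PCNA, which is also 1 of the proliferation markers, by 1.11. The calls of CDCA7 and PCNA were lost without LN95(KO) replicate 4 (0.89 and 0.96), and that of CDCA7 also without LNCaP95 replicate 2 (0.99). USP7, UHRF2 and ZBTB24 were not called, and DNMT3L had 0 reads.

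Of the 5 further DNA demethylation genes, 0 were called by edgeR or by DESeq2. Of all genes tested, edgeR called 8.86% higher and 9.13% lower. By the adjusted p alone 2 were higher and 1 lower, against 29.8% and 30.1% of all genes tested. The lower gene was TET2, at -0.62 (SE 0.08, adjusted p = 2.42e-06, edgeR), with 35.7 ± 1.16 CPM in LNCaP95 and 23.2 ± 0.600 in LN95(KO). TET3 was at 53.4 ± 0.402 and 49.9 ± 4.19 CPM. Of the 7 readers of methylated CpG, 0 were called by edgeR or by DESeq2. By the adjusted p alone 2 readers were higher and 4 lower, against the same 29.8% and 30.1%. Their largest change was that of ZBTB4, at -0.54. Among 9 genes of methyl donor supply, 2 were called higher and 0 lower, against 8.86% and 9.13% of all genes tested. The 2 were GNMT (1.55) and NNMT, both of which consume the methyl donor. NNMT had 2 counts in all in LNCaP95 but 39 in LN95(KO), and the scaled ratio was 19.9 (5.16 to 171, 95% interval for counting error). AHCY, which clears the by-product of methylation, rose by 0.98 and passed 2-fold under library totals (1.04).

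**Figure D5:**
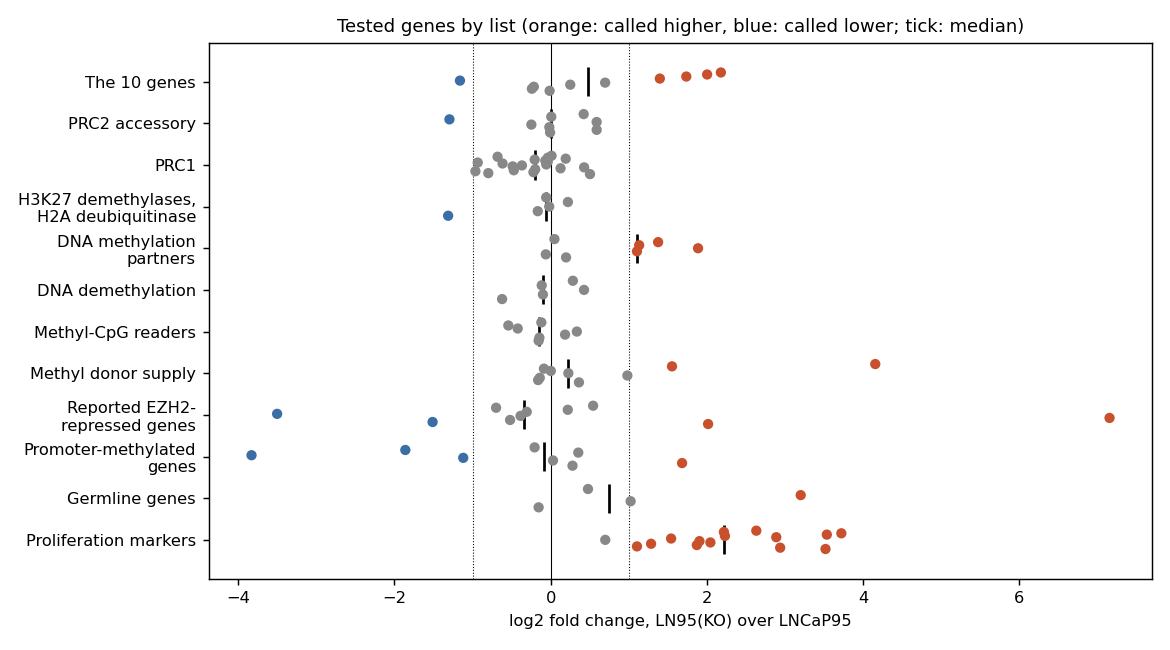
Log2 fold change of every tested gene by list, with the list median as a tick, genes called higher in orange and genes called lower in blue. The list medians are -0.20 for PRC1, whose genes reach down to -0.96, -0.10 for DNA demethylation, -0.14 for the readers, 1.11 for the DNA methylation partners and 2.22 for the proliferation markers. MSMB, with 0 reads in LNCaP95, is drawn at its fitted value of 7.16, which is no measure of its fold.

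Genes that others have reported as repressed by EZH2 in prostate cancer did not move one way. The list had 12 genes and 10 of them enough reads. Of these, 2 were called higher and 2 lower, against 8.86% and 9.13% of all genes tested. The median log2 fold change was -0.35. MSMB, a secreted prostate protein, had 0 reads in LNCaP95 but 17 and 18 in LN95(KO), which is at least 11.9-fold higher when set against 3 counts over the group. DAB2IP, a RAS inhibitor, fell from 31.7 ± 2.02 to 11.1 ± 0.830 CPM (log2 fold change -1.51), and TIMP3, an inhibitor of metalloproteinases, from 62 and 45 counts to 6 and 3 (-3.50).

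Genes with promoter methylation in prostate cancer also split. Of 11 listed, 8 were tested, 1 was called higher and 3 lower, against 8.86% and 9.13% of all genes tested. RARB, a retinoic acid receptor, rose by 1.68 on the log2 scale (SE 0.14, adjusted p = 1.63e-08, edgeR), from 73 and 68 counts to 220 and 223. CCND2, a G1 cyclin, fell from 1042 and 1014 counts to 445 and 480 (-1.12). ABCB1, a drug exporter, had 47 counts in all in LNCaP95 but 3 in LN95(KO), and the scaled ratio of LNCaP95 to LN95(KO) was 15.3 (4.93 to 76.9). TNFRSF10C was called lower (-1.86), a call that was lost without LN95(KO) replicate 4 (adjusted p 0.0534) and with DESeq2 (0.0560), and exons of other annotated genes cover 33.0% of its exon bases. GSTP1, a detoxifying enzyme, had 7 and 6 counts in LNCaP95 against 1 and 2 in LN95(KO), too few to test. DNA methylation was not measured in these samples.

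Of 12 germline genes that promoter methylation keeps silent in body tissues, 4 were tested. Of these, 1 was called higher and 0 lower, against 8.86% and 9.13% of all genes tested. The called gene was BRDT, with 3 and 1 counts in LNCaP95 against 17 and 21 in LN95(KO). MAEL, with too few reads to test, went the other way, from 13 and 7 counts to 1 and 1, a scaled ratio of LNCaP95 to LN95(KO) of 9.78 (2.37 to 86.3, counting error only). DAZL, PIWIL1, MAGEA4 and MAGEB2 had 0 reads in all 4 libraries. MAGEA1 was expressed in both lines, at 37.5 ± 0.181 and 52.3 ± 1.66 CPM (log2 fold change 0.48), and belongs to a family of close copies among which reads can be lost.

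The genes most like EZH2 over the 4 libraries, by Euclidean distance of centred log2 CPM among 10708 genes whose mean normalized count reached 100, were THOC7 (distance 0.0160), NDUFA5 (0.0346) and RNASEH1-DT (0.0378). THOC7 had 1011 and 963 counts in LNCaP95 against 844 and 1061 in LN95(KO). For TET1, the gene with the largest change, they were MICAL1 (0.491), CEP152 (0.573) and RPL21P28 (0.587), the last a ribosomal protein pseudogene whose count is uncertain.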

How the data were processed

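RNA-Seq was measured in 4 cell line libraries. The authors deposited raw gene counts. Alignment to hg19 used hisat2 (2.1.0) and counting used htseq with GENCODE, without strand per the file names, so antisense overlaps are not separated. The series table and single files differed in 0 cells. The 5 summary lines were left out, among them reads on no feature (3.81% to 4.06% of entries). Ambiguous reads, which overlap several genes, were 10.4% and 10.2% of entries in LNCaP95 against 9.85% and 9.82% in LN95(KO). Symbols were matched for 59899 identifiers and not for 981. Coordinates and lengths came from GENCODE 44 on GRCh37, a later release. The study tested single genes with DESeq2 at these thresholds.

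Here counts entered the edgeR 4.0.16 quasi-likelihood test (R 4.3.3; robust, TMM, no covariate) after filterByExpr (minimum count 10, total 15). SE is the log2 fold change over the square root of F. CPM use TMM-scaled totals; a count of 0 allows 3 reads (0.159 to 0.173 CPM). Counting intervals are exact binomial (95%) and cover counting error only. No permutation test of 2 against 2 can go below p = 0.333, so none was used. Members and lists were chosen with earlier results of these data known. Named genes are the 10 genes, up to 4 called genes a list by adjusted p or else its largest change, and the nearest 3 genes; other names were chosen after their values were seen, and some genes under the rule are not reported here. Alternatives were RLE, upper quartile and no factors, no filter, DESeq2 1.42.0, a 2-fold null (glmTreat), no fold criterion, and leaving out each library. The fit was tested on simulated data.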

Additional observations from a re-analysis of the deposited data

Results flagged for a closer look

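The share of entries that did not align lies in the summary lines, which no comparison uses, and it was higher in both LN95(KO) libraries, the lowest of which was at 7.707%, than in both LNCaP95 libraries (3.85% and 3.96%). What those reads are was not tested.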

How the results depend on the processing

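The 5 calls among the 10 genes became 8 without a fold criterion, when DNMT1, EZH1 and SUZ12 were added, and 4 against a 2-fold null or without LN95(KO) replicate 4, when DNMT3A was lost (log2 fold change -0.90); the other alternatives gave 5. Of 90 values of single members under alternatives, 86 kept their direction and their call, which needs adjusted p and fold together. The exceptions were DNMT3A, just given, and the log2 fold change of EZH2, which was 0.0414 under library totals and ran from -0.16 to 0.12 without 1 library (0.03 without LNCaP95 replicate 1, 0.12 without LN95(KO) replicate 3). By the adjusted p alone (edgeR unless named), EZH1, at 0.0218, missed the threshold under library totals (0.0727), with DESeq2 (0.153), without LNCaP95 replicate 2 (0.220) and without LN95(KO) replicate 4 (0.210), and EED, at 0.0615, passed it under library totals (0.0246) and without LN95(KO) replicate 3 (0.0326). Over all genes the 2811 calls became 1687 against a 2-fold null and 9349 without a fold criterion, and over the context lists 30 became 67 without one, each by the criterion's own construction. With the longest transcript as length, the EZH2 share was 62.5% in LNCaP95 and 65.9% in LN95(KO), from 51.2% and 55.0%, and the DNMT1 share 70.3% and 73.2%, from 62.3% and 66.3%. No paired analysis was done because the labels state no pairing of LNCaP95 replicates 1 and 2 with LN95(KO) replicates 3 and 4. Depth limits TET1 and the lists of near-silent genes most.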
